A study of Rattus norvegicus with 12 samples.

Results

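Plb1, Tmigd1, Cmahp, Fam151a, Gnai1, Htatip2, Ldhd and Tnfsf13 are 8 genes grouped here as less known segment markers. Their transcripts differed in level between the upper and the middle small intestine of Belgrade rats. The genes were chosen by a large difference between jejunum and duodenum in these same arrays, so the difference itself is described here without a test. The selection set no numerical limit. All 11 probe sets that the platform annotation assigns to 1 of these 8 genes alone were taken, of 20826 probe sets and 14217 genes annotated in that way. All 11 passed the filter on dim probe sets, as did 13501 of the 20826.

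The Belgrade rat has a recessive mutation of Slc11a2, which encodes the iron transporter DMT1, and homozygotes lack most of its activity and become anaemic. RNA from scrapes of the duodenum and of the jejunum was hybridised to Affymetrix arrays. The groups were heterozygous duodenum (written +b in the labels), heterozygous jejunum (+/b), homozygous duodenum (b/b) and homozygous jejunum (b/b), with 3 arrays each. Each array held RNA of 1 group of rats, and every group supplied both segments, which gave 6 rat groups and 12 arrays. All rats carried at least 1 mutant allele, no wild-type group was used here, and no treatment, age or sex is given in the sources used here. The p-values of the genotype comparisons below measure the spread between groups of rats. Those given between segments for related genes come from a fit that did not pair the segments of a rat group.

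The small intestine is lined by enterocytes whose gene programme changes along its length. The duodenum, just below the stomach, is specialised for uptake of iron and calcium, while the jejunum takes up most sugars, amino acids and fats. Transcription factors of the GATA, CDX and HNF families are known to take part in this regional patterning.

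Values are scaled signals, the deposited intensities after each array was brought to the same trimmed mean of 500. They are comparable between arrays for 1 probe set, not between probe sets. Differences are on the log2(scaled signal + 16) scale, which understates changes of dim probe sets, and carry the standard error (SE) of a limma fit over 17694 probe sets. The array medians lay between 108.4 and 181.5. The 2 arrays of +/b duodenum replicates 2 and 3 had been deposited with trimmed means of 51.6 and 126.6 against 500.2 for the other 10, and were multiplied by 9.69 and 3.95. The enterocyte transcripts Vil1, Fabp1 and Fabp2 were bright on all 12 arrays, with lowest signals of 14480.2, 22573 and 30742 for Vil1, Fabp2 and Fabp1. Pdx1, which encodes a homeobox factor of the proximal gut, lay between 539 and 2707 on the duodenum arrays and between 15.1 and 127 on the jejunum arrays, which fits the segment labels. In scrapes of whole mucosa, fewer cells of a type and less RNA per cell cannot be told apart.

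Of the 8 genes, 5 were brighter in the jejunum. Plb1 encodes phospholipase B1, a brush border enzyme that removes fatty acids from dietary phospholipids and retinyl esters. Its signal was 37.6, 67.3 and 29.2 in +/b duodenum and 6584, 1052 and 823 in +/b jejunum. The b/b arrays gave 101, 35.7 and 69.8 for duodenum and 3609, 9434 and 6149 for jejunum. All 6 duodenum values lay below the median of their own array, and the lowest jejunum value was well above the highest duodenum value. The difference, jejunum minus duodenum, was 4.95 ± 0.62 (SE, n = 3 per group) in +/b and 6.21 ± 0.62 in b/b rats. The +/b jejunum groups varied widely, and without replicate 1, the brightest, the +/b difference was 4.01.

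Tmigd1 encodes an immunoglobulin-domain adhesion protein of the epithelial surface. Its signal was 22.6, 110.4 and 43.3 in +/b duodenum and 1814, 988 and 465 in +/b jejunum. For b/b duodenum Tmigd1 read 25.9, 41.9 and 45.8, and for b/b jejunum 916, 4108 and 2349. As with Plb1, all 6 duodenum values were below the array median and the segments did not overlap in either genotype. The segment difference of Tmigd1 was 3.86 ± 0.57 in +/b and 5.30 ± 0.57 in b/b rats. For both genes the order of the group means was +/b below b/b in the jejunum, and the 2 genotypes overlapped within each segment.

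Cmahp is the rat locus of CMP-N-acetylneuraminic acid hydroxylase, which carries the older name Cmah and makes the precursor of the sialic acid Neu5Gc. The brighter of its 2 probe sets read 1274, 3127 and 918 in +/b duodenum and 10799.5, 9169 and 5870.2 in +/b jejunum. That probe set read 1139, 416 and 452 for b/b duodenum and 8275, 10660.1 and 8051 for b/b jejunum. Unlike Plb1 and Tmigd1, Cmahp was above the array median on every duodenum array, and the segments did not overlap. The differences were 2.42 ± 0.43 in +/b and 3.86 ± 0.43 in b/b. The dimmer probe set gave 2.40 ± 0.38 and 3.81 ± 0.38, and the 2 probe sets correlated at r = 0.992 over the 12 arrays. The mean of the jejunum arrays was nearly equal in the genotypes, at 8613 ± 2511 (SD, n = 3) in +/b and 8995 ± 1446 in b/b.

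Fam151a encodes a membrane protein with little described function. Its signal was 453, 1295 and 353 in +/b duodenum and 6319.7, 3696 and 2399 in +/b jejunum. The b/b values of Fam151a were 1117, 166 and 376 for duodenum and 4442, 6052 and 3694 for jejunum. The lowest jejunum array exceeded the highest duodenum array in both genotypes, with differences of 2.66 ± 0.58 and 3.43 ± 0.58. The locus overlaps Acot11 in the RefSeq annotation, and how far the probe set separates the 2 genes was not tested.

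Gnai1 encodes an inhibitory alpha subunit of heterotrimeric G proteins, which lowers cyclic AMP by restraining adenylyl cyclase. Its only probe set of its own was dim, at 155, 14.4 and 64.4 in +/b duodenum and 521, 216 and 149 in +/b jejunum. Gnai1 read 27.4, 65.1 and 57.8 for b/b duodenum and 289.7, 660.2 and 1024 for b/b jejunum. It was the 1 probe set of the 11 whose segments overlapped in +/b rats, where duodenum replicate 1 exceeded jejunum replicate 3. The difference was 1.87 ± 0.63 in +/b and 3.23 ± 0.63 in b/b. Without the 2 arrays deposited unscaled, which left only duodenum replicate 1, the +/b difference of Gnai1 fell to 0.68. When duodenum replicate 2 alone was left out it was 1.22. A further 2 probe sets are annotated to Gnai1 together with Gnai3 and were not assigned to either gene. The brighter of these had means of 9508 in +/b and 9404 in b/b duodenum, and of 7585 and 8331 in jejunum. The dimmer had means of 1966 and 1730.5 in duodenum, and of 1804 and 2240 in jejunum.

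The other 3 genes were brighter in the duodenum. Htatip2 encodes a short-chain dehydrogenase relative that inhibits nuclear import. Its signal varied little within a group, at 3556, 3418 and 3578 in +/b duodenum and 1283, 1002 and 1339.6 in +/b jejunum. Htatip2 read 3604, 4066 and 4036 for b/b duodenum and 1013, 828 and 1110.3 for b/b jejunum. Jejunum minus duodenum was -1.54 ± 0.17 in +/b and -1.98 ± 0.17 in b/b, and no jejunum array reached any duodenum array.

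Ldhd encodes the mitochondrial D-lactate dehydrogenase, which oxidises D-lactate to pyruvate. Its brighter probe set read 1808, 2139.6 and 1893 in +/b duodenum and 624, 845 and 628 in +/b jejunum. On the same probe set Ldhd read 3209, 5578 and 5456 for b/b duodenum and 911, 805 and 1043 for b/b jejunum. The segments did not overlap in either genotype, and the 3 b/b duodenum arrays lay above all other arrays. The differences were -1.47 ± 0.22 and -2.31 ± 0.22, and -1.17 ± 0.28 and -2.42 ± 0.28 on the dimmer probe set. The 2 probe sets correlated at r = 0.976 over the 12 arrays.

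Tnfsf13 encodes APRIL, a ligand of the tumour necrosis factor family that supports plasma cells and immunoglobulin A production. The brighter of its pair of probe sets read 3771, 1918 and 2866 in +/b duodenum and 1063, 696 and 679 in +/b jejunum. The b/b arrays of Tnfsf13 gave 6154, 4149.6 and 4592 for duodenum and 1573, 695 and 1449 for jejunum. No jejunum array reached a duodenum array in either genotype. The differences were -1.77 ± 0.32 and -2.05 ± 0.32, and those of the dimmer probe set were -1.89 ± 0.44 and -2.11 ± 0.44. The locus overlaps Eif4a1l in the annotation. A summed signal of 7 B and plasma cell transcripts of a list of 9 ran from 10441 to 18115 in +/b jejunum and from 10552 to 31088 in +/b duodenum, and in b/b rats from 10825 to 16310 and from 18815 to 26264, and its part in the Tnfsf13 values was not tested.

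**Figure D1:**
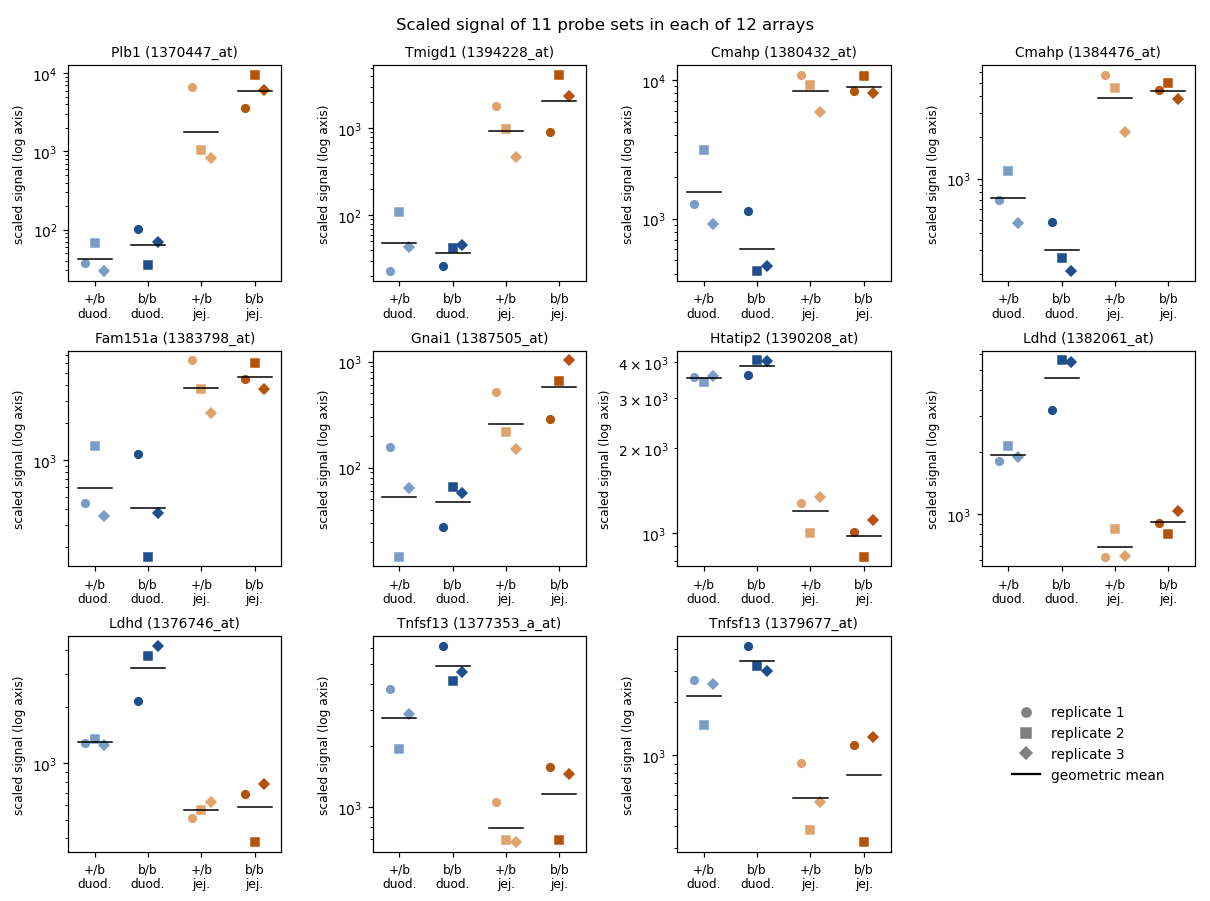
Scaled signal (log axis) of the 11 probe sets of the 8 genes on each of the 12 arrays, with 1 point per array and the 4 groups of 3 arrays side by side. Plb1 lies between 29.2 and 101 on the duodenum arrays and between 823 and 9434 on the jejunum arrays, while Htatip2 shows the reverse order with little spread.

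Over the 11 probe sets, 10 had segments that did not overlap in +/b rats, against 10.8% of all 17694 probe sets, and 11 did so in b/b rats, against 14.8%. Since the genes were selected on this contrast, nothing is read from these counts. Within the 6 rat groups, the same-numbered jejunum and duodenum arrays differed in the same direction for every probe set in 6 of 6 groups. Gnai1 had the smallest such difference of the jejunum-high genes, 1.04 in +/b replicate 3, and Plb1 the largest, 7.51 in b/b replicate 2. Htatip2 ranged from -2.27 to -1.41 over the 6 groups.

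The segment difference was further from 0 in b/b than in +/b rats for all 11 probe sets when every array was used. The difference between the genotypes was 1.27 for Plb1, 1.44 for Tmigd1, 1.44 for the brighter probe set of Cmahp, 0.77 for Fam151a and 1.36 for Gnai1. It was -0.44 for Htatip2, and -0.84 and -1.25 for the brighter and dimmer probe sets of Ldhd. The values of Tnfsf13, -0.29 and -0.22, turned to 0.08 and 0.39 without b/b jejunum replicate 2, and to 0.17 and 0.08 without the 2 arrays deposited unscaled. Those last values rest on replicate 1 alone in +/b duodenum. The dimmer Tnfsf13 probe set also turned without +/b duodenum replicate 2 (0.04) or +/b jejunum replicate 1 (0.10). Fam151a dropped to 0.15 without b/b duodenum replicate 2, and Plb1 to 0.71 without +/b jejunum replicate 3. With the arrays as deposited the values of Fam151a and of both Cmahp probe sets were -0.88, -0.27 and -0.24. These values build on the contrast used in the selection, so no test is given.

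**Figure D2:**
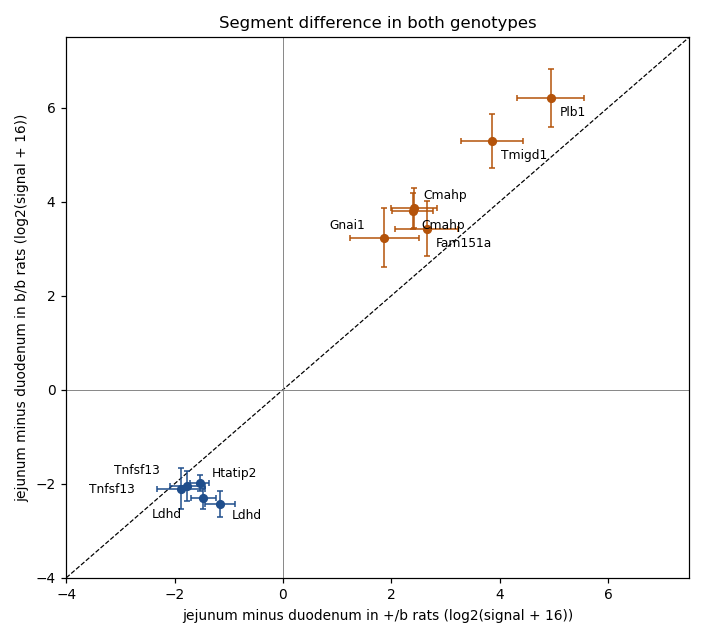
Log2 difference between jejunum and duodenum in +/b rats (horizontal axis) and in b/b rats (vertical axis) for the 11 probe sets, with bars of 1 SE and the line of equal difference. Plb1 lies farthest to the right, at 4.95 in +/b and 6.21 in b/b. Every probe set lies on the side of the line where the b/b difference is larger in size. For Tnfsf13 this side rests on single arrays, and for Cmahp and Fam151a it turned only with the arrays as deposited.

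The bases before the transcription start of the 8 genes were searched for motifs of the regional factors named above. RefSeq promoters of the build GRCr8 matched all 8 genes, and the 250 bases before the start of 1 transcript were used, on both strands. None of the matches in the 8 windows overlapped each other. The motifs were that of GATA factors (AGATAA or TGATAA or AGATAG or TGATAG), CDX (TTTATG or TTTATT), an HNF1 part site (GTTAAT), HNF4 (CAAAGT or CAAAGG) and a TATA box (TATAAA). They were held by 27.0%, 27.1%, 6.5%, 27.6% and 12.9% of all 33469 promoters. The 2 promoters with the most matches, 1 with a single match and 1 of a duodenum-high gene with none are printed, with matches in capitals on the strand of the gene. Their places are chr6:29930184-29930433 on the minus strand for Plb1, chr10:62236965-62237214 on the plus strand for Tmigd1, chr5:126743374-126743623 on the plus strand for Fam151a and chr19:56497696-56497945 on the minus strand for Ldhd.
Plb1: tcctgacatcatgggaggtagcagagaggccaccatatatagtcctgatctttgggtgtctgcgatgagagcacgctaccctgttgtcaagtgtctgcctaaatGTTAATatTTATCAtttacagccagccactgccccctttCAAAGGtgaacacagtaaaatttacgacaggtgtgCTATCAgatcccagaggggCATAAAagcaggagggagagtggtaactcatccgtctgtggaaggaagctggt
Tmigd1: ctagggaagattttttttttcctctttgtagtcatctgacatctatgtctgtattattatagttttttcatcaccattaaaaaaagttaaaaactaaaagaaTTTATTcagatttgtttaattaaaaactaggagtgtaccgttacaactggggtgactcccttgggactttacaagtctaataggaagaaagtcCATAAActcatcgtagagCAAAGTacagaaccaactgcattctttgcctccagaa
Fam151a: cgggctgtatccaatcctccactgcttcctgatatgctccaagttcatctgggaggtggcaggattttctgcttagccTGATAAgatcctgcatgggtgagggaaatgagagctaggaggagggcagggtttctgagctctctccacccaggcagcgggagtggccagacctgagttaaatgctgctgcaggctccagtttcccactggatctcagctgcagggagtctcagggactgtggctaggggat
Ldhd: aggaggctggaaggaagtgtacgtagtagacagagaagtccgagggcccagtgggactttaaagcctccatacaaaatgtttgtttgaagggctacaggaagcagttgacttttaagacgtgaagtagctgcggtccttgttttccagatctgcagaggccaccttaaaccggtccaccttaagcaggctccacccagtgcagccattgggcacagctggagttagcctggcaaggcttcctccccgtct

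The Plb1 window held 5 matches, of which 2 were GATA, and 1 each was CDX, HNF1 and HNF4. The Tmigd1 window held 2 CDX matches and 1 HNF4 match. Cmahp had 1 GATA match and 1 TATA box, and Fam151a had 1 GATA match. Gnai1, Htatip2, Ldhd and Tnfsf13 held none of these letters in the window, which says nothing about the factors themselves. Base composition differed as well, from 33.2% GC in Tmigd1 to 80.4% in Gnai1, around a median of 51.2% over all promoters. Plb1, Tmigd1, Cmahp and Htatip2 have 7, 5, 11 and 4 annotated transcripts, and their windows lie inside the gene, before the start of 1 of these. The windows of the other 4 genes lie just before the gene. The genes themselves lie at chr6:29807127-29945607 for Plb1, chr10:62234764-62249169 for Tmigd1, chr17:40985129-41070317 for Cmahp, chr5:126743624-126756375 for Fam151a, chr4:17706061-17790176 for Gnai1, chr1:108609424-108624810 for Htatip2, chr19:56492827-56497695 for Ldhd and chr10:54898805-54901815 for Tnfsf13.

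The comparison of b/b with +/b rats in each segment was not itself used in choosing the genes, but it shares its arrays with the segment contrasts that were. Choosing genes by a large segment difference can favour a genotype difference within a segment. The member counts below are therefore a description. In the duodenum, none of the 11 probe sets passed the adjusted threshold of 0.05 in limma with Benjamini-Hochberg adjustment, against 7 of 17694 (0.0396%), and 5 had an unadjusted p below 0.05, against 6.17% of all probe sets. The groups did not overlap for 5 probe sets, all with b/b higher, against 3.18% of all probe sets. These 5 belonged to Htatip2, Ldhd and Tnfsf13, which are the 3 duodenum-high genes. Ldhd and Tnfsf13 each count with both of their probe sets, and Htatip2 separated only by 3604 in b/b against 3578 in +/b. Selection on the b/b segment difference favours high b/b duodenum values in duodenum-high genes, so nothing is read from this count.

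Ldhd showed the largest of these differences. On its brighter probe set the mean signal was 1947 ± 172 (SD, n = 3) in +/b and 4748 ± 1334 in b/b duodenum, a log2 difference of 1.24 ± 0.22 (limma, Benjamini-Hochberg adjusted p = 0.125). The other probe set of Ldhd gave 1.31 ± 0.28 (limma adjusted p = 0.323). All 3 b/b duodenum arrays were above all 3 +/b arrays on both. Without b/b duodenum replicate 1, the dimmest of the 3 and the array least like the others (median Spearman correlation 0.836), the brighter probe set of Ldhd passed (limma adjusted p = 0.0118), and array weights gave 0.0281. Over all alternatives its limma adjusted p ran from 0.0118 to 0.940. The selection used these same arrays and favours high b/b duodenum values for Ldhd, so nothing is read from these passes.

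Tnfsf13 was higher in all 3 b/b duodenum arrays, by 0.83 ± 0.32 on its brighter probe set (limma adjusted p = 0.789) and by 0.66 ± 0.44 on the other (limma adjusted p = 0.839), so neither passed. The B and plasma cell sum of the duodenum overlapped between the genotypes. Htatip2 differed by 0.15 ± 0.17 (limma adjusted p = 0.921), although its 3 b/b values lay above its 3 +/b values. The summed signal of 6 duodenum transcripts overlapped between the genotypes, from 31192 to 82843 in b/b and from 29289 to 39094 in +/b duodenum. Within that list Cybrd1 and Pdx1 were higher in b/b duodenum with no overlap. Cybrd1 read 5752, 22238 and 20079 against 600, 771 and 1157, a difference of 4.05 ± 0.41 (limma adjusted p = 0.00112). Pdx1 read 1132, 1777 and 2707 against 969, 539 and 1126, so it separated narrowly. S100g, Slc40a1, Trpv6 and Gata6 overlapped. A summed signal of 4 blood cell transcripts of a list of 5 ran from 1921 to 3523 in +/b and from 12532 to 17625 in b/b duodenum. The part of these in the values of the duodenum-high genes was not tested.

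Cmahp lay lower in b/b duodenum, by -1.34 ± 0.43 on its brighter probe set (limma adjusted p = 0.704) and by -1.23 ± 0.38 on the other (limma adjusted p = 0.702). The genotypes overlapped, because b/b duodenum replicate 1 at 1139 exceeded +/b replicate 3 at 918. The +/b replicate 2 array, the brightest for Cmahp, also carried a summed signal of 200119 for 16 exocrine pancreas transcripts of a list of 17, against 5326 and 8624 in the other +/b duodenum arrays. Without it the Cmahp differences were -0.83 and -0.91 (limma adjusted p = 0.568 and 0.544), and the adjusted p of the brighter probe set ranged from 0.240 to 1.00 over all alternatives. Plb1, Tmigd1, Fam151a and Gnai1 differed by 0.45 ± 0.62, -0.32 ± 0.57, -0.50 ± 0.58 and -0.23 ± 0.63 in the duodenum, all within their error.

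In the jejunum, 0 of the 11 probe sets passed in limma, against 6 of 17694 (0.0339%). An unadjusted p below 0.05 was held by 1 of the 11, against 1.34% of all probe sets, and 0 had groups that did not overlap, against 7.9%. Plb1 came nearest, with a mean of 2819.7 ± 3262 (SD, n = 3) in +/b and 6397 ± 2920.3 in b/b, a difference of 1.72 ± 0.62 (limma, Benjamini-Hochberg adjusted p = 1.00). Without +/b jejunum replicate 1, the 1 bright +/b array, the Plb1 difference was 2.65 (limma adjusted p = 0.0896). Tmigd1 and Gnai1 differed by 1.12 ± 0.57 and 1.13 ± 0.63, with overlapping arrays. Cmahp, Fam151a, Ldhd, Htatip2 and Tnfsf13 differed by at most 0.54 in size.

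Averaged over both segments of each rat group, 3 b/b groups were set against 3 +/b groups. Again 0 of 11 probe sets passed in limma, against 7 of 17694 (0.0396%), and 4 had an unadjusted p below 0.05, against 2.83% of all probe sets. The rat groups did not overlap for 3 probe sets, with b/b higher, against 2.91% of all probe sets. These were Plb1 at 1.09 ± 0.34 and the 2 probe sets of Ldhd at 0.68 ± 0.19 and 0.82 ± 0.18 (limma, Benjamini-Hochberg adjusted p = 1.00 for each). Plb1 fell to 0.72 without +/b replicate 3. It fell to 0.22 without the 2 arrays deposited unscaled, which left replicate 1 as the only +/b rat group. The brighter probe set of Ldhd ranged from 0.71 to 0.95 as single rat groups were left out.

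**Figure D3:**
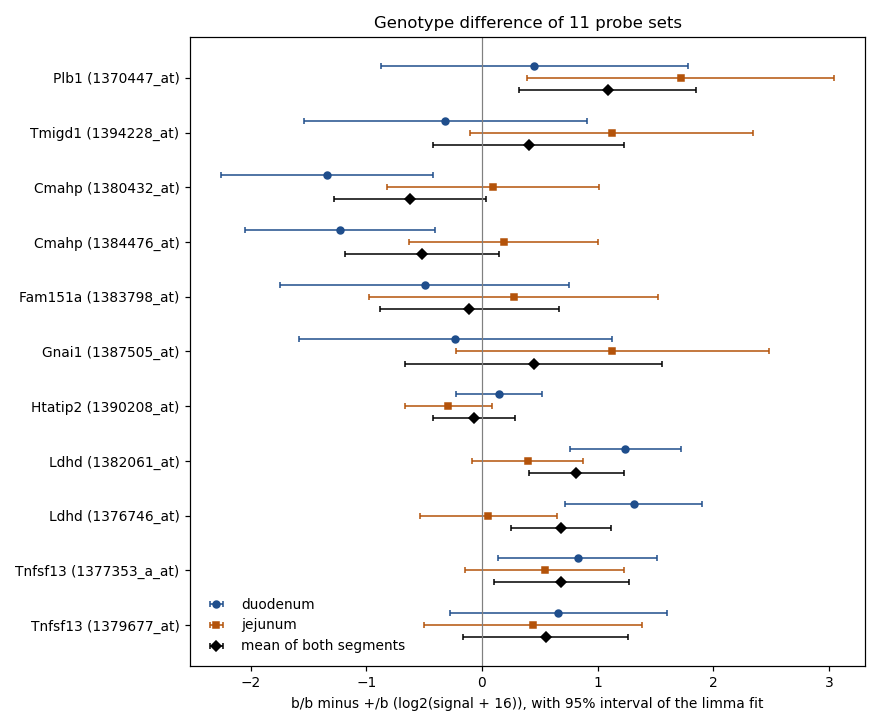
Log2 difference between b/b and +/b rats for the 11 probe sets in the duodenum (circles), in the jejunum (squares) and averaged over both (diamonds), with 95% intervals of the limma fits. The 2 probe sets of Ldhd lie highest in the duodenum, at 1.24 and 1.31, and Plb1 lies highest in the jejunum, at 1.72, with no probe set past the adjusted threshold.

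Some arrays stood at the same end of their group for several genes. In +/b duodenum, replicate 2 was the highest for 4 of 5 jejunum-high genes and the lowest for 2 of 3 duodenum-high genes. The summed signal of 5 distal small intestine transcripts was also highest on it, at 24631 against 16670 and 11933. Without it the +/b segment difference was 5.20 for Plb1, 4.33 for Tmigd1, 3.21 for Fam151a, 2.93 for Cmahp and 1.22 for Gnai1. With it these were 4.95, 3.86, 2.66, 2.42 and 1.87. Among the 3 +/b jejunum arrays, replicate 1 was the highest and replicate 3 the lowest for 5 of 5 jejunum-high genes. The summed signal of 11 enterocyte transcripts of a list of 12 ran in the same order on these arrays, at 458035, 334109 and 210266. That sum fell from replicate 1 to replicate 3 in every group, as at 535457, 310697 and 203235 in b/b jejunum. There replicate 1 was the lowest for 3 of 5 jejunum-high genes. The part of the enterocyte sum in the gene values was not tested. In b/b duodenum replicate 1 was the highest for 3 and the lowest for 2 of the 5. Among the 3 b/b jejunum arrays, replicate 2 was the highest for 4 of 5 jejunum-high genes and the lowest for 3 of 3 duodenum-high genes, each gene taken by its brighter probe set. Of 5 transcripts of the distal small intestine, Fabp6, a bile acid binding protein, was high on that array at 5349 against 327 and 476, whereas Osr2, Guca2a and Slc10a2 lay between the other 2 arrays and Cubn was lowest. The sum of the 5 was 39023, between 49557 and 24260 on the other 2. Without that array the b/b segment difference was 5.88 for Plb1, 4.81 for Tmigd1, 3.23 for Fam151a and -1.86 for Htatip2. The pair of Tnfsf13 probe sets gave -1.69 and -1.49, against -2.05 and -2.11 with it. All kept their direction.

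After group means were removed, the 2 probe sets of Cmahp still correlated at r = 0.916, those of Tnfsf13 at 0.923 and those of Ldhd at 0.773 over the 12 arrays. Between genes, the brighter probe set of Cmahp and Fam151a reached 0.941 and Plb1 and Tmigd1 0.71, while Cmahp and Gnai1 stood at -0.37. These are descriptions over arrays that share rat groups and scaling, with no test.

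**Figure D4:**
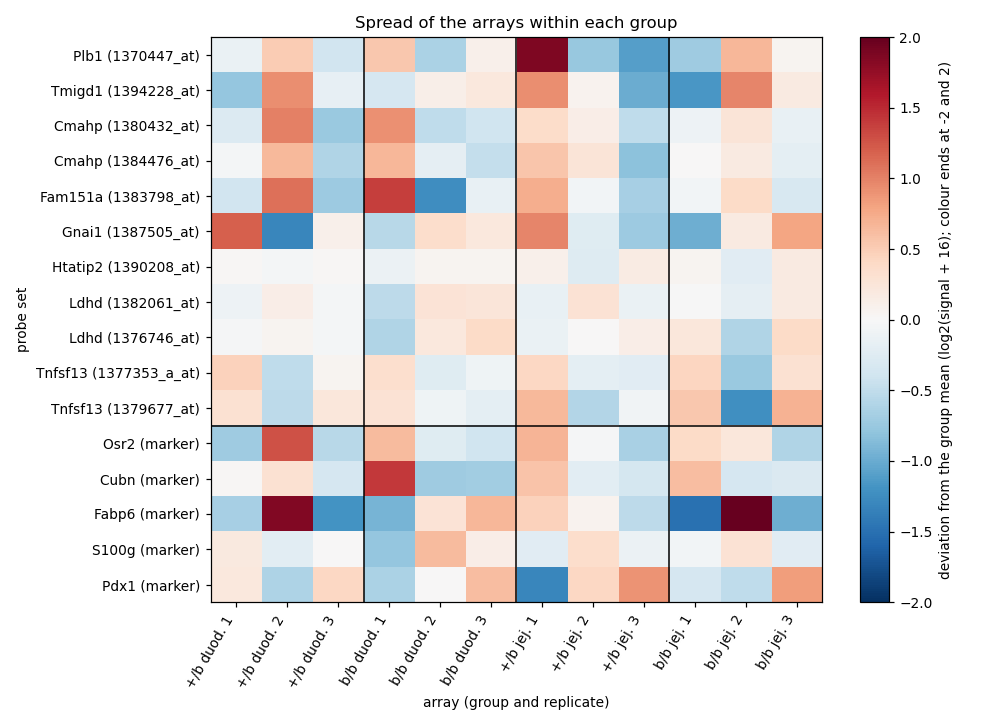
Deviation of each array from its group mean (log2 scale) for the 8 genes and the tissue markers, with colour from below to above the mean. The column of b/b jejunum replicate 2 is above the mean for Plb1, Tmigd1, Cmahp and Fam151a and, among the distal markers shown, for Fabp6 and Osr2 but not Cubn, and below it for Htatip2, Ldhd and Tnfsf13.

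The genes most like each member were found by Pearson correlation over the 12 arrays among 10059 tested genes. That correlation includes the segment difference on which the members were selected. Plb1 and Tmigd1 shared Pyy, a gut hormone of the distal intestine, as their closest gene, at r = 0.964 and 0.988, and after removal of the group means at 0.744 and 0.902. Cmahp and Fam151a shared Osr2, a zinc finger transcription factor, at 0.984 and 0.963, and after removal of the group means at 0.876 and 0.824. Both had Cubn, the receptor for intrinsic factor with vitamin B12, among their nearest 3. Gnai1 lay nearest to Fhl1 at 0.923, and at 0.738 after that removal. Htatip2 lay nearest to S100g, the duodenal calcium-binding protein calbindin-D9k, at 0.971, but after removal of the group means this was -0.18. Ldhd lay nearest to Car9, a carbonic anhydrase, at 0.971, with Car2 also among its nearest 3, and Tnfsf13 to Abhd4 at 0.986. With the group means removed, Ldhd and Car9 stood at 0.688 and Tnfsf13 and Abhd4 at 0.932.

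Lists of related genes were drawn up for 7 of the 8 members, all but Fam151a. In the 3 comparisons of genotype, 0 genes of 7 lists passed in limma with Benjamini-Hochberg adjustment. For the sialic acid genes related to Cmahp, 19 of 32 were tested, 1 had an unadjusted p below 0.05 in the duodenum (6.17% of all probe sets did), and their median difference there was -0.15 against -0.05 over all probe sets. For the APRIL and immunoglobulin A genes related to Tnfsf13, 13 of 25 were tested, 10 were above 0 in b/b duodenum, 2 had an unadjusted p below 0.05, and the median was 0.27. Tnfrsf17, the plasma cell receptor that binds APRIL, differed by 0.78 ± 0.36 there (limma adjusted p = 0.789). For the lactate and pyruvate genes related to Ldhd, 19 of 26 were tested, 0 had an unadjusted p below 0.05 in the duodenum, and the median was -0.05. Ldha and Ldhb, which act on L-lactate, differed by -0.17 ± 0.34 and -0.21 ± 0.34 in b/b duodenum, where Ldhd differed by over 1.

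The remaining lists gave the same count of 0 by limma. Unadjusted p-values below 0.05 in the duodenum, held by 6.17% of all probe sets, were found for 1 of 21 tested G protein and adenylyl cyclase genes, 1 of 25 brush border enzymes and phospholipases, 0 of 22 adhesion genes and 2 of 30 short-chain dehydrogenases and import genes. Averaged over the segments, the largest differences in the 7 lists were those of Clps, pancreatic colipase, at -1.50 ± 0.85, Mgll, a monoglyceride lipase, at -1.19 ± 0.52, and Dhrs9, a retinol dehydrogenase, at 1.07 ± 0.40 (limma, Benjamini-Hochberg adjusted p = 1.00 for each). Clps is among the pancreas transcripts that were high on +/b duodenum replicate 2.

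Between the segments, 4 related genes passed in limma and are named after their values were seen. Akp3, an intestinal alkaline phosphatase of the brush border, was lower in the jejunum by -5.61 ± 0.89 in +/b (limma, Benjamini-Hochberg adjusted p = 0.0371) and by -6.13 ± 0.89 in b/b rats (limma adjusted p = 0.00537). In b/b rats Pla2g2a, a secreted phospholipase of Paneth cells, was higher in the jejunum by 3.79 ± 0.64 (limma adjusted p = 0.0122), St6gal1, a sialyltransferase, by 1.61 ± 0.28 (limma adjusted p = 0.0137), and Naaladl1, a brush border peptidase, by 1.59 ± 0.32 (limma adjusted p = 0.0343). The summed signal of 5 Paneth cell transcripts of a list of 6, Pla2g2a among them, ran from 5636 to 13851 in b/b duodenum and from 21720 to 52311 in b/b jejunum, and its part in the Pla2g2a difference was not tested. The background was 0.0565% of probe sets called in +/b and 0.763% in b/b rats.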

How the data were processed

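The authors deposited 1 linear signal intensity per probe set and array, and MAS5 is named for 10 of the 12 arrays per the submitters' processing notes. The software version is not given in the sources used here. All 12 value columns were used, leaving 0 unused. Each array was scaled to a 2% trimmed mean of 500, since 2 arrays had been deposited far below it. After 57 control probe sets were removed, those averaging at least 100 over the 12 arrays after scaling were kept (17694). Log2(scaled signal + 16) was fitted with limma 3.58.1 in R 4.3.3 (4 group means, eBayes with an intensity trend), and two-sided p-values were adjusted by Benjamini-Hochberg over all kept probe sets, at a threshold of 0.05. The fit was run on simulated data with independent noise for each array, which does not test its p-values for arrays that share rat groups. The averaged comparison used 6 rat-group means. Gene symbols came from the platform annotation and coordinates from RefSeq GRCr8.

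The members and the gene lists were chosen with earlier results of these data known. Genes named beside the members were the 3 most correlated with each, list members called or among the 4 of largest averaged genotype difference, and tissue markers. Others named were Tnfrsf17, Ldha, Ldhb and the related genes called between segments, chosen after their values were seen. Same-numbered duodenum and jejunum arrays of a genotype come from 1 rat group per the series design, and their deviations from the group means correlated at 0.19 to 0.28 in +/b and 0.16 to 0.38 in b/b rats. Replicate numbers paired the genotypes in the jejunum (0.12 to 0.42) but not in the duodenum (-0.06 to 0.16). Across both genotype and segment, same-numbered arrays gave 0.14 to 0.45 for +/b jejunum with b/b duodenum and 0.03 to 0.26 for the reverse. Arrays of different rats thus correlated as highly, so these values do not by themselves show the pairing within rat groups. Alternatives covered the scaling, pseudocount, filter, array weights, blocks and left-out arrays.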

Additional observations from a re-analysis of the deposited data

How the results depend on the processing

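With the arrays as deposited, 5 instead of 10 member probe sets had segments that did not overlap in +/b rats, the +/b segment differences of Ldhd (dimmer, then brighter probe set) and Htatip2 turned to 0.52, 0.24 and 0.19, and 3 probe sets were called in the duodenum between genotypes. These were the dimmer probe set of Ldhd at 3.00, its brighter one at 2.95 and the brighter one of Tnfsf13 at 2.54, but the median of all probe sets moved to 1.53 there, so these follow the unscaled arrays. The duodenum count was 1 (the brighter probe set of Ldhd) with array weights (1.45, limma adjusted p = 0.0281), and 1 with the replicate block by number (1.24, limma adjusted p = 0.0286). That block was chosen after seeing the data, and whether the numbers pair the duodenum arrays of the genotypes was not tested. Leaving out single arrays gave 0 to 1 calls there, the 1 without b/b duodenum replicate 1. The limma adjusted p of this Ldhd probe set ranged from 0.0118 to 0.940 over the alternatives. Nothing is read from these calls, since the selection favours high b/b duodenum values for Ldhd. The rat-group replicate block changed no call, and counts in the jejunum and averaged over segments stayed at 0 under every alternative run. Of the values of single probe sets by alternative, 1096 were not called and stayed within the within-group SD of the main value, whatever their sign. A further 39 moved beyond it, 3 segment differences moved beyond it with a turned sign, and 6 genotype differences were called. Signals near or below the array median, as for Plb1, Tmigd1 and Gnai1 in the duodenum, limit their folds, and 3 groups of rats limit every comparison.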
